A study of Mus musculus with 3 samples.

Results

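Twist1 peaks that lie between olfactory receptor (Olfr) genes were taken from each of the 3 deposited peak lists as the peaks for which the nearest listed gene on both sides has a name beginning with Olfr. The lists held 129 such peaks of 10965 in E12.5 endocardial cushions (ECCs), 624 of 48965 in E10.5 limb buds and 96 of 7538 in peripheral nerve sheath tumor (PNST) cells, 849 in all. Twist1 ChIP-seq was performed on atrioventricular canal ECCs and forelimb buds dissected from wild-type FVB/N embryos, each pooled from several litters, and on a mouse PNST cell line labelled FVB/N and grown in DMEM with 10% FBS. Each sample was precipitated with 5 µg of anti-Twist1, and there was 1 sample per tissue, with no replicate. Without replicates no difference between tissues was tested, and the intervals given below are 95% intervals that cover counting error only. The lists give no expression values, so neither the Olfr genes nor markers of the tissues were checked for activity here.

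Olfactory receptors are the odorant sensors of olfactory neurons and form the largest gene family in the mouse. The genes stand in clusters on many chromosomes, and each mature olfactory neuron uses a single receptor allele while the remaining receptor genes are held silent in compacted chromatin. Twist1 is a basic helix-loop-helix factor of mesenchymal cells that binds the E-box, CANNTG, as a homodimer or heterodimer. The Olfr family is not known for a role in heart cushions, limb buds or nerve sheath tumors.

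Peaks overlapped by at least 5% of their length were joined across tissues, which gave 801 separate regions. Of these, 4 regions held a peak in all 3 tissues, which was 3.10% of the ECC, 0.641% of the limb bud and 4.17% of the PNST Olfr peaks (background of all peaks 5.85%, 1.36% and 9.03%). The sequences of 3 of them (mm9, plus strand, E-boxes in capitals) are shown because they recurred in every tissue.
Olfr740 to Olfr741, chr14:51085680-51085828: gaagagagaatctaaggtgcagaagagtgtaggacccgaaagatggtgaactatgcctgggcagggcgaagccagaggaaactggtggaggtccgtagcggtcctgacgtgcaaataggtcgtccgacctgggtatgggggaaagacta
Olfr1107 to Olfr1109, chr2:86927514-86927779: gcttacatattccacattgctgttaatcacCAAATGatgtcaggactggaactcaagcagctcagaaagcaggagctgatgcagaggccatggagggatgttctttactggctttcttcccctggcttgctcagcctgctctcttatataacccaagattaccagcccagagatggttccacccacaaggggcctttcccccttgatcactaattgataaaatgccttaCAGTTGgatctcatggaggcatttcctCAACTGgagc
Olfr1506 to Olfr1274-ps, chr2:90235200-90235396: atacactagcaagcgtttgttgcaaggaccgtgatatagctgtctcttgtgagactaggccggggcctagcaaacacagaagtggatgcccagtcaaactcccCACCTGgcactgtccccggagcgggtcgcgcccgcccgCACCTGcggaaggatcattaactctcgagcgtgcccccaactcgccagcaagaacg
The first region had no E-box and no tandem run longer than 7 bp. The second held 3 E-boxes and the third held 2, both CACCTG.

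The member with the most tags in each tissue outside those 4 regions is shown next, as an example of the sequence under the tallest remaining peaks. The limb bud peak is 488 bp long and its first 300 bases are printed.
Olfr878 to Olfr881, chr9:37737732-37737979: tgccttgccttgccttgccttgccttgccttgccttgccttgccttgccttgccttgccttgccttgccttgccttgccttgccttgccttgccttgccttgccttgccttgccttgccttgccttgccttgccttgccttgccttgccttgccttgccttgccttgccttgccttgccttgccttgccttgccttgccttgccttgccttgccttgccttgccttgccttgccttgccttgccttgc
Olfr1008 to Olfr1009, chr2:85535714-85536013: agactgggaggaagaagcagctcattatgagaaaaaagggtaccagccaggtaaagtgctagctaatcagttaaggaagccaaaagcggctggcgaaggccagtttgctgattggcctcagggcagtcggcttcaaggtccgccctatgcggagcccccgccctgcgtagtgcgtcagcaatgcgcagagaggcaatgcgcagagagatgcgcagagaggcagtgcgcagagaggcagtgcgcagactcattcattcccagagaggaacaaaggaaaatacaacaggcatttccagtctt
Olfr847 to Olfr849, chr9:19205089-19205335: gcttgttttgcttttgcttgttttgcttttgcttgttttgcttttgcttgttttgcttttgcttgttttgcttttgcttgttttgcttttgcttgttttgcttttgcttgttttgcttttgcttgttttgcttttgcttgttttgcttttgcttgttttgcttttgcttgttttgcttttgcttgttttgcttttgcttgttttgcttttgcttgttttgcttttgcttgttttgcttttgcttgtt
The ECC peak was over its whole 248 bp a tandem run of the 5-bp unit tgcct. The PNST peak was over its whole 247 bp a tandem run of a 15-bp unit. Neither held an E-box, nor did the printed limb bud sequence, in which the longest tandem run was 38 bp.

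The share of each list that lay between Olfr genes was close to equal in the 3 tissues. It was 1.18% in ECCs (95% Wilson interval 0.991 to 1.4), 1.27% in limb buds (1.18 to 1.38) and 1.27% in PNST cells (1.04 to 1.55). The 3 intervals overlapped, although the lists differed in length and in depth, with 3149934, 14893391 and 11823220 tags after duplicate filtering. Scaled to the same number of filtered tags (per 1e+06), ECCs gave 41.0 Olfr peaks, limb buds 41.9 and PNST cells 8.12. The PNST rate was the lowest for all peaks too, at 638 on that scale, compared with 3481 in ECCs and 3288 in limb buds.

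The sequence available to these peaks was measured in the annotation. Runs of at least 2 coding Olfr genes with no other coding gene between them formed 81 clusters with 1087 Olfr genes, covering 25.5 Mb or 0.998% of the sequenced genome. Peaks fell there at 4.97 per Mb in ECCs, compared with 4.16 per Mb in the rest of the genome, a ratio of 1.20 (1.0 to 1.42). In limb buds the densities were 24.2 and 18.6 per Mb, a ratio of 1.30 (1.20 to 1.41). In PNST cells they were 3.8 and 2.83 per Mb, a ratio of 1.34 (1.09 to 1.64). In the lists as deposited each ratio was above 1. The limb bud ratio was 0.99 when peaks were limited to a p-value of 1e-10 or smaller, and the ratios were then 1.04 in ECCs and 1.14 in PNST cells. They rest on 41 limb bud, 11 ECC and 6 PNST peaks in the clusters, and no interval was computed for them. The clusters had a mean GC content of 38.5%.

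Olfr peaks had the same tag quartiles as their whole lists. In ECCs the tags in an Olfr peak ranged from 5 to 47 with a median of 6, and 41.9% stood at the lowest value of 5, compared with 40.3% of all peaks. In limb buds tags ranged from 8 to 53 with a median of 10, and 29.3% stood at 8, compared with 30.1% of all peaks. In PNST cells tags ranged from 7 to 34 with a median of 8, and 42.7% stood at 7, compared with 36.9% of all peaks. The whole lists differed from the Olfr peaks mainly at the upper end, with maxima of 2022, 4302 and 1886 tags. Median fold enrichment, the summit tags relative to a background taken locally, was 26.46 in ECCs and 14.37 in limb buds, equal to that of all peaks in both. In PNST cells it was 14.29, compared with 15.17 for all peaks.

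**Figure D1:**
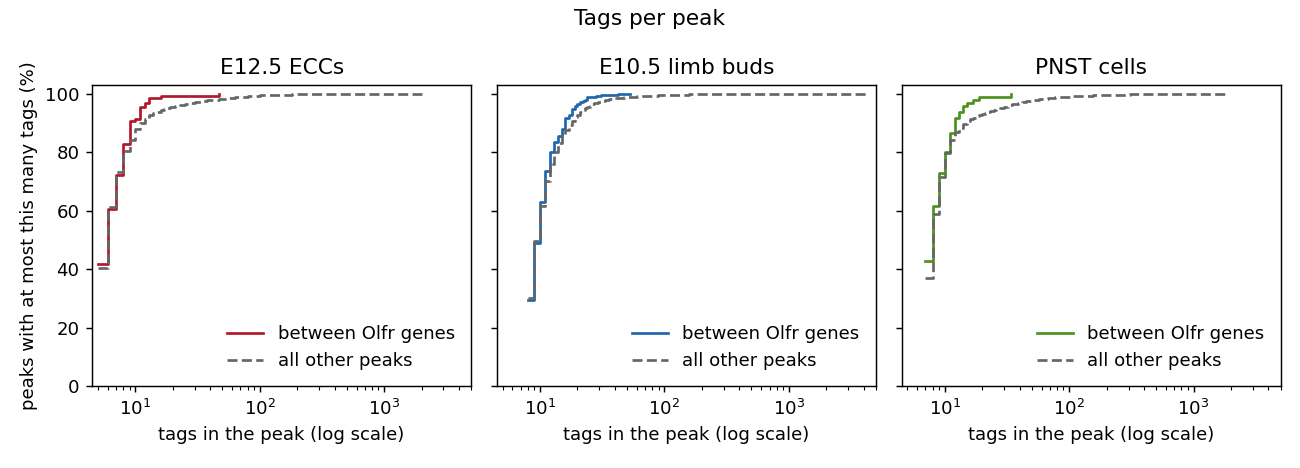
Cumulative share of peaks (vertical axis, percent) with at most a given number of tags (horizontal axis, log scale) for Olfr peaks (solid) and all other peaks (dashed) of each list. At the lowest tag count of each list the Olfr curves start at 41.9% (ECC), 29.3% (limb bud) and 42.7% (PNST), and the dashed curves reach the maxima of the lists.

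Few Olfr peaks passed a stricter p-value. A p-value of 1e-10 or smaller was reached by 12 Olfr peaks in ECCs (9.30%, background of all peaks 10.4%), 43 in limb buds (6.89%, background 9.01%) and 6 in PNST cells (6.25%, background 8.28%). A fold enrichment of at least 20 was reached by 94 in ECCs (72.9%, background 73.5%), 56 in limb buds (8.97%, background 10.1%) and 11 in PNST cells (11.5%, background 14.1%). The members' shares were close to the background of the same list.

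Most Olfr peaks belonged to 1 tissue. Of the 801 regions, 582 were found in limb buds alone, 89 in ECCs alone and 86 in PNST cells alone. ECCs and limb buds had 34 regions in common that lacked a PNST peak, limb buds and PNST cells had 4 without an ECC peak, and ECCs and PNST cells had 2 without a limb bud peak. In ECCs 40 Olfr peaks were overlapped by a peak of another tissue (31.0%, interval 23.7 to 39.4), compared with a background of 34.0% over all ECC peaks. In limb buds 42 were overlapped (6.73%, 5.02 to 8.97), compared with a background of 8.86%. In PNST cells 10 were overlapped (10.4%, 5.76 to 18.1), compared with a background of 18.5%, so the share of the PNST Olfr peaks was the one whose interval lay below that of its list. In each of these overlaps the overlapping peak was itself an Olfr peak. Under a reciprocal overlap of 50% the PNST share was 9.38% (9 of 96), compared with 14.9% of all PNST peaks. When a peak within 1 kb counted it was 22.9%, compared with 27.2%. No interval was given for these values.

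By pair of tissues, the partner was most often limb bud. Limb bud peaks overlapped 38 of the ECC Olfr peaks (29.5%, background 33.1%) and 8 of the PNST ones (8.33%, background 17.2%). ECC peaks overlapped 38 of the limb bud Olfr peaks (6.09%, background 7.61%) and 6 of the PNST ones (6.25%, background 10.3%). PNST peaks overlapped 6 of the ECC ones (4.65%, background 6.76%) and 8 of the limb bud ones (1.28%, background 2.61%). Summits of overlapping peaks lay a median of 37 bp apart in the 38 ECC and limb bud pairs, 8.5 bp in the 6 ECC and PNST pairs and 6 bp in the 8 limb bud and PNST pairs.

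**Figure D2:**
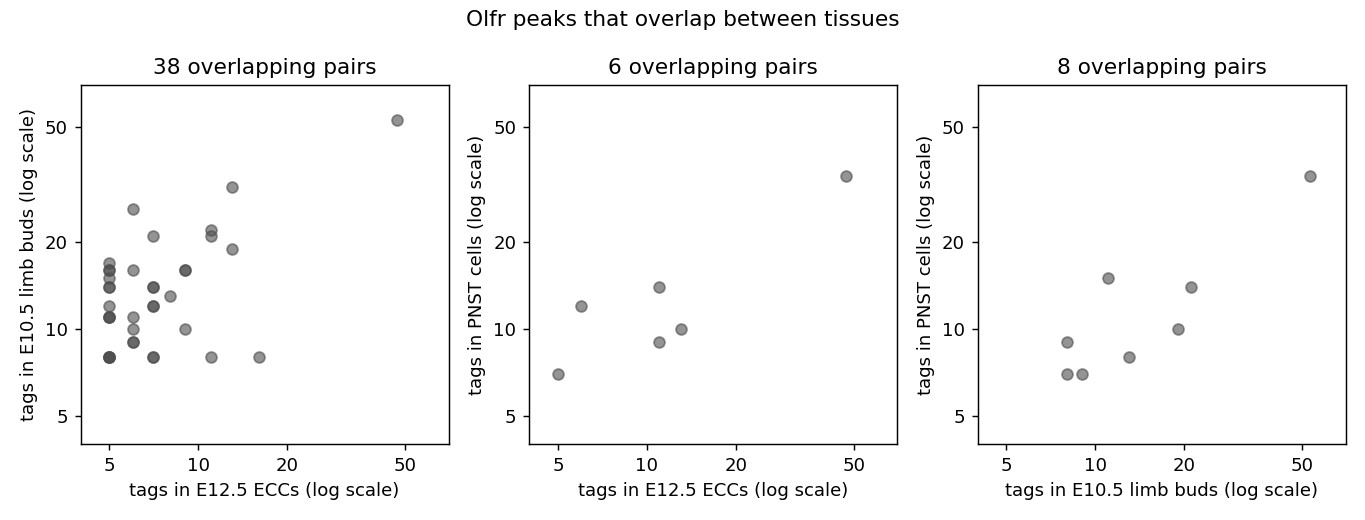
Tags in each Olfr peak of 1 tissue (horizontal axis, log scale) and in the peak of the second tissue that overlaps it (vertical axis, log scale), 1 point per overlapping pair and darker where points coincide. Most points lie at low tags in both tissues, and 1 pair lies apart in each panel at the highest tags of both.

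The 3 regions shown above as found in all 3 tissues had at most 21 tags. The region between Olfr1107 and Olfr1109 on chromosome 2 held 11 ECC tags, 21 limb bud tags and 14 PNST tags, with fold enrichments of 93.37, 20.88 and 21.24. Its summits lay within 4 bp of each other, and its 3 E-boxes stood towards the ends of the region, so that the limb bud peak held 3, the PNST peak 1 and the narrower ECC peak 0. The region between Olfr1506 and Olfr1274-ps, also on chromosome 2, held 13, 19 and 10 tags, with fold enrichments of 61.44, 33.33 and 13.07, and each of the 3 peaks held 2 E-boxes. A 21-bp stretch of it, acctgcggaaggatcattaac, was identical to sequence in the ECC peak with the most tags in the list, at chr17:39979929-39985807 over the annotated pseudogene AY036118. The region between Olfr740 and Olfr741 on chromosome 14 held 11, 8 and 9 tags, with fold enrichments of 71.43, 20.88 and 24.38, and no E-box. All 3 regions were intergenic, and in all 3 the ECC fold enrichment was the highest of the 3. The ECC list also had the highest median fold enrichment over all its peaks, at 26.46 (limb bud list 14.37, PNST list 15.17). By itself this order therefore does not rank the tissues by Twist1 binding at these regions.

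Regions seen in 2 tissues that reached the highest ranks were few. Between Olfr761 and Olfr129 on chromosome 17, a peak held 13 tags in ECCs at a fold enrichment of 84.03 and 31 tags in limb buds at 54.80, with 2 E-boxes in each. Between Olfr878 and Olfr881 on chromosome 9, the ECC peak of the tgcct tandem printed above held 16 tags at 87.30 and overlapped by 37 bp a limb bud peak of 8 tags at 13.05, whose summit lay 183 bp away. Between Olfr713 and Olfr714 on chromosome 7, a peak held 6 tags in ECCs at 56.40 and 12 tags in PNST cells at 36.41, with no E-box. These 3 regions also lay outside genes.

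Other peaks with many tags were found in 1 tissue alone. The limb bud peak between Olfr1008 and Olfr1009, whose first 300 bases are printed above, held 42 tags at a fold enrichment of 9.01. The limb bud peak between Olfr1054 and Olfr1055 held 32 tags at 6.83. In PNST cells the peak of the 15-bp tandem between Olfr847 and Olfr849 held 19 tags at 24.27, and that between Olfr784 and Olfr786 held 17 tags at 16.53 with 2 E-boxes. Both limb bud peaks lay on chromosome 2 and neither held an E-box.

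The Olfr peaks were spread over the Olfr clusters broadly in proportion to their length. Members lay on the same number of chromosomes, 15, in each tissue, and none lay on chromosomes 3, 5 or 8, which have 2, 1 and 5 coding Olfr genes. Chromosome 2, with 286 of the 1113 coding Olfr genes, held 32 ECC, 149 limb bud and 29 PNST peaks. Chromosome 7, which carries the class I receptors beside many of class II and has 240 coding genes, held 24, 131 and 22 peaks. Chromosome 9, with 129 genes, held 14, 86 and 10. On chromosome 2 this was 24.8%, 23.9% and 30.2% of the Olfr peaks, beside 25.9% of the cluster length. On chromosome 7 it was 18.6%, 21.0% and 22.9%, beside 18.0% of the length. The X chromosome had more peaks than its 7 coding Olfr genes would give at the family's rate in ECCs and limb buds, with 6 and 32 peaks (4.65% and 5.13%), beside 0.629% of the genes and 2.39% of the length, and it had 1 peak in PNST cells (1.04%).

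**Figure D3:**
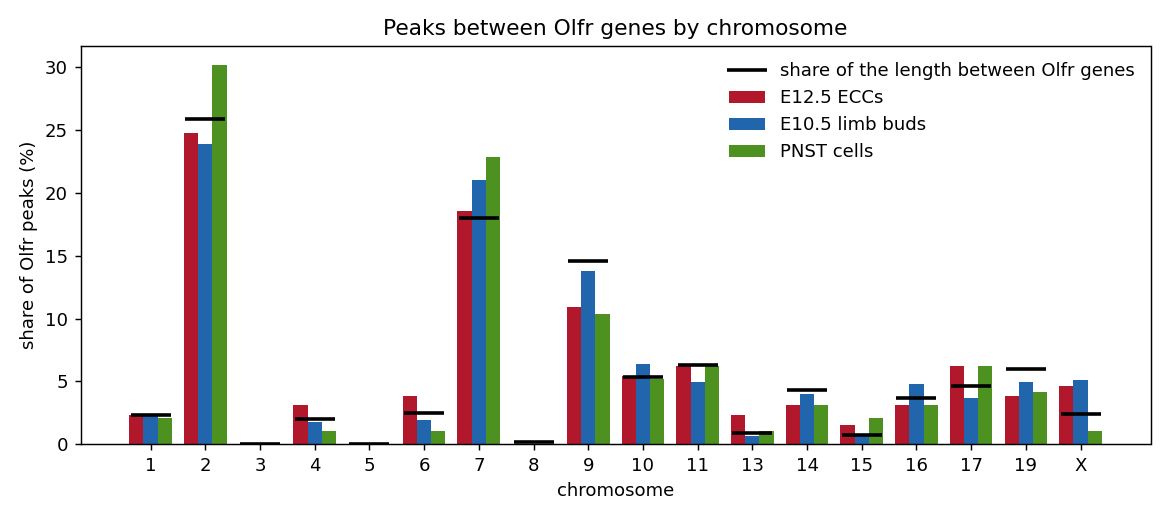
Share of the Olfr peaks of each tissue (bars, percent, vertical axis) on each chromosome that has a coding Olfr gene (horizontal axis), with the share of the length between clustered Olfr genes as black lines. Bars follow the lines on most chromosomes, with 25.9% of the length and 23.9% to 30.2% of the peaks on chromosome 2, and stand above the line in ECCs and limb buds on the X chromosome.

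Of the 81 clusters, 40 held an ECC Olfr peak, 63 a limb bud one and 39 a PNST one. A peak of each tissue was present in 26 clusters, and 15 held none. Among the 15 clusters of at least 500 kb, 14 had a member in ECCs, and all 15 did in limb buds and in PNST cells. Densities over these long clusters ran from 0.00 to 11.1 per Mb in ECCs, 18.3 to 55.4 in limb buds and 1.60 to 7.11 in PNST cells. The cluster from Olfr153 to Olfr32 on chromosome 2, with 118 genes over 2607 kb, had the most members in each tissue, at 14, 51 and 10. The cluster from Olfr996 to Olfr1126 on the same chromosome, with 92 genes, held 8, 35 and 6.

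Gaps between neighbouring receptors differed in how many peaks they held. The 849 peaks filled 415 gene pairs, of which 288 had a peak in 1 tissue, 104 in 2 tissues and 23 in all 3. The fullest gap was that from Olfr1323 to Olfr1324 on the X chromosome, which the lists place about 415 kb apart (415396 bp from the limb bud distances) and which held 25 peaks in limb buds with 8 to 24 tags and 4 in ECCs with 5 to 7 tags. In PNST cells no pair held more than 2 peaks.

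Most Olfr peaks lay several kb from the nearer gene. The median distance to the nearer of the flanking genes was 8538 bp for ECCs, 8481 bp for limb buds and 7940.5 bp for PNST cells. A gene within 50 kb was listed for 125 ECC peaks (96.9%, background 54.5%), 600 limb bud peaks (96.2%, background 52.8%) and 96 PNST peaks (100%, background 49.0%). These shares are largely set by the rule, which puts each peak between Olfr genes. The median gap between the flanking genes was 35244 bp (ECC), 34566.5 bp (limb bud) and 35965 bp (PNST). A gene within 5 kb was listed for 26 ECC peaks (20.2%, background 19.3%), 143 limb bud peaks (22.9%, background 18.0%) and 19 PNST peaks (19.8%, background 16.5%). A gene within 1 kb was listed for 4 ECC peaks (3.10%, background 6.47%), 25 limb bud peaks (4.01%, background 5.25%) and 0 of 96 PNST peaks (Wilson interval up to 3.85%, background 3.89%). The rule and the spacing of the Olfr genes bear on the 5 kb and 1 kb shares as well, and their part was not tested. By the annotation 127, 615 and 95 of the peaks were intergenic, 7 limb bud peaks and 1 PNST peak were intronic, and 2 ECC and 2 limb bud peaks had their summit in an exon. The ECC pair lay in Olfr462 and Olfr463, neighbours on chromosome 11, each 180 bp long with 5 tags. Each lay 182 bp and 748 bp from the 2 ends of its gene and had a median of 2 copies of its sequence in mm9. How tags of repeated sequence were assigned is not given in the sources used here.

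Counted from the genes, 204 of the 1113 coding Olfr genes had a peak within 50 kb in ECCs (18.3%, background of all coding genes 22.5%). In limb buds there were 613 (55.1%, background 53.9%) and in PNST cells 169 (15.2%, background 14.6%). A peak was near 46 of the Olfr genes in all 3 tissues (4.13%, background 6.56%) and near 434 in none (39.0%, background 41.3%). The ECC share and the share in all 3 tissues were below the background, and the other shares were close to it. Neighbouring genes of a cluster can be near the same peak.

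An E-box was present in 74 ECC Olfr peaks (57.4%, 48.7 to 65.6, background 54.7%), 347 limb bud peaks (55.6%, 51.7 to 59.5, background 56.0%) and 56 PNST peaks (58.3%, 48.3 to 67.7, background 54.0%). Other peaks of the same lengths held one in 54.8%, 55.7% and 54.4% of cases. Windows of the median peak length tiled along the Olfr clusters held one in 60.1% at 180 bp, 51.5% at 143 bp and 53.3% at 150 bp. Within 50 bp of the summit the shares were 41.1%, 40.1% and 39.6% (background 38.5%, 39.9% and 40.7%). The share of Olfr peaks with the letters CANNTG on either strand was thus near that of other peaks of the same lengths. Window shares lay within the intervals of the Olfr peaks in ECCs and PNST cells, and below the interval in limb buds. The windows were not matched to the peaks in GC content.

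The most frequent form of the E-box was not the same in each list. The form CACCTG was the most frequent in ECC Olfr peaks, at 2.19 per kb, and in limb bud ones, at 1.55 per kb, compared with 0.60 per kb in the clusters as a whole. The same form led over all peaks of these lists, at 1.64 per kb in ECCs and 1.34 per kb in limb buds. Among Olfr peaks it was present in 39 ECC peaks (30.2%, 23.0 to 38.6, background 19.6%), 115 limb bud peaks (18.4%, 15.6 to 21.7, background 16.0%) and 8 PNST peaks (8.33%, 4.28 to 15.6, background 9.41%). The form CAAATG led in PNST Olfr peaks, at 1.95 per kb, compared with 1.03 per kb in the clusters. It was present in 25 PNST peaks (26.0%, 18.3 to 35.6, background 15.3%), 4 ECC peaks (3.10%, 1.21 to 7.70, background 4.36%) and 34 limb bud peaks (5.45%, 3.93 to 7.52, background 4.96%). The intervals lay above the background for CACCTG in ECCs and for CAAATG in PNST cells. They treat peaks as independent, but 76.7% of ECC and 36.5% of PNST Olfr peaks were in groups with shared sequence, described below. Both forms were also picked after their values were seen, so the intervals do not by themselves mark an excess. Base composition differed between the lists too, with a mean GC content of 53.8% for ECC, 51.1% for limb bud and 40.4% for PNST Olfr peaks, and its part in the E-box forms was not tested. All peaks of the lists had mean GC contents of 53.9%, 51.2% and 42.5%.

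Olfr peaks lay mostly in repeated sequence. Copies of every 32-bp word of a peak were counted on both strands of mm9, and each peak was given the median of its words. Copies that the assembly lacks were not counted, so single copy here means 1 exact copy in mm9. Over Olfr peaks the median was 327 copies (ECC), 604.75 copies (limb bud) and 346.25 copies (PNST). Over all peaks the medians were 198, 453.5 and 218.5 copies. No word at all was of single copy in 81 ECC Olfr peaks (62.8%, background 59.6%), 506 limb bud ones (81.1%, background 73.5%) and 64 PNST ones (66.7%, background 66.0%). More than 50% of the words were of single copy in 6 ECC peaks (4.65%, background 5.10%), 1 limb bud peak (0.160%, background 1.35%) and 3 PNST peaks (3.12%, background 3.83%). A tag from repeated sequence can be placed at more than 1 site, how such tags were mapped is not given in the sources used here, and its part in these counts was not tested.

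The few peaks whose words mostly had 1 exact copy in mm9 included regions found in all tissues. By the mm9 assembly the region between Olfr740 and Olfr741 was mostly single copy in each tissue. Single-copy words made up 77.1% of its ECC peak, 56.6% of its limb bud peak and 63.5% of its PNST peak. Olfr1506 to Olfr1274-ps was above 50% in ECCs (71.0%) and PNST cells (63.7%). In ECCs the 4 others were peaks of 5 to 8 tags, with 98.0% of words single copy between Olfr1453 and Olfr1454 and 95.4% between Olfr124 and Olfr125. A tandem run of at least 50 bp was found in 3 ECC peaks (2.33%, background 8.55%), 8 limb bud peaks (1.28%, background 3.84%) and 3 PNST peaks (3.12%, background 5.21%).

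**Figure D4:**
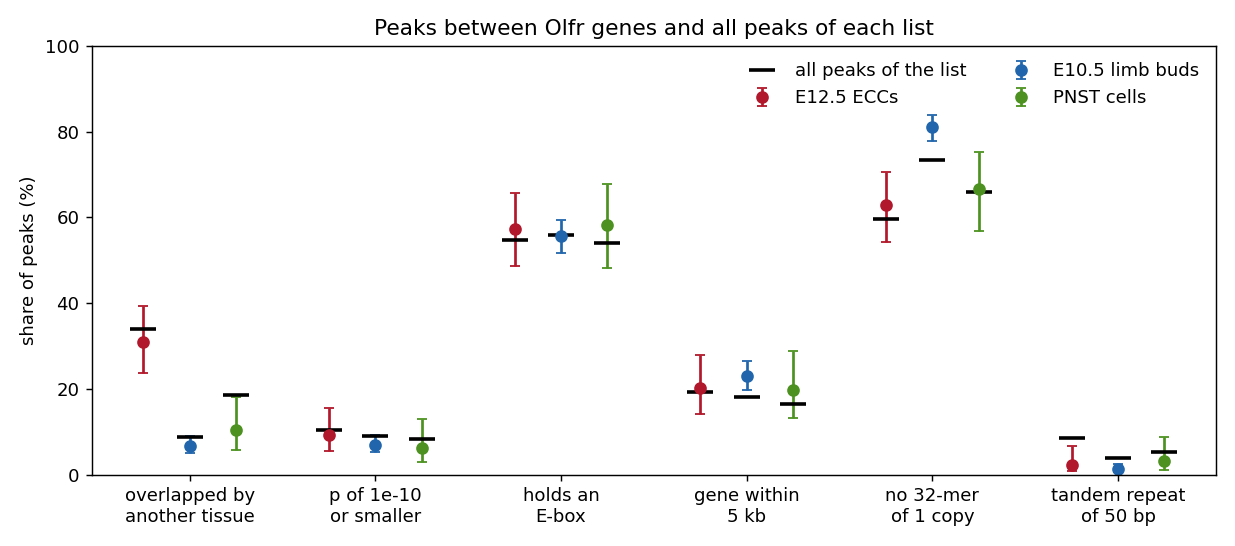
Share of Olfr peaks of each tissue (points with 95% Wilson intervals, percent, vertical axis) that have the property named on the horizontal axis, beside the share over all peaks of the same list (black lines). Most lines fall within the intervals. They fall outside for overlap in PNST cells (10.4% and 18.5%), for a gene within 5 kb (22.9% and 18.0%) and no single-copy word (81.1% and 73.5%) in limb buds, and for tandem runs in ECCs and limb buds. The rule, which puts each peak between Olfr genes, bears on the share within 5 kb.

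Many Olfr peaks had sequence in common. Regions whose 32-bp words were shared to at least 20% of the smaller set were joined, which put 588 of the 801 regions (73.4%) in 69 groups. Such a group took in 99 of the ECC members (76.7%), 489 from limb buds (78.4%) and 35 from PNST cells (36.5%). The 5 groups of at least 20 regions held 348 regions. A member of each of the 3 largest, chosen as the region linked to most others, is shown here with E-boxes in capitals (mm9, plus strand, first 300 bases for the third group).
Olfr792 to Olfr794, chr10:128998685-128998827: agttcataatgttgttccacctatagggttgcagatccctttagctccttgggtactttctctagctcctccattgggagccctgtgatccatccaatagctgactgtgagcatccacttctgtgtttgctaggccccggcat
Olfr59 to Olfr410, chr11:74120238-74120456: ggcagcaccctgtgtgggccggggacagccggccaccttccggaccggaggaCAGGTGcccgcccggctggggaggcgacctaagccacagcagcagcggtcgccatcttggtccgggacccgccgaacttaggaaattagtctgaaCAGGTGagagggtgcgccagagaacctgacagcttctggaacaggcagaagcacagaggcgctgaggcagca
Olfr30 to Olfr332, chr11:58288467-58288766: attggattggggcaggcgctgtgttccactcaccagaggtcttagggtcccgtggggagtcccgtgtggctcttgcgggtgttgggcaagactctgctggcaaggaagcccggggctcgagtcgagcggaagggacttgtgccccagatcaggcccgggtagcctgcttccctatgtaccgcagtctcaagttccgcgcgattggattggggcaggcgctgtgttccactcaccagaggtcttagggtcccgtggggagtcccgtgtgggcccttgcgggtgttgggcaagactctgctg
The first group had 175 regions on 14 chromosomes and took 161 of the limb bud peaks (25.8%), 10 of the ECC peaks (7.75%) and 6 of the PNST peaks (6.25%). The second had 57 regions, with 51 limb bud peaks, 10 ECC peaks and 0 PNST peaks, and an E-box in 87.7% of its regions. The third had 51 regions, with 40 limb bud peaks (6.41%), 14 ECC peaks (10.9%) and 0 PNST peaks, and an E-box in 37.3%. The fourth had 41 regions, with 34 limb bud, 2 ECC and 6 PNST peaks, and the fifth had 24, with 20, 5 and 2. Regions of 1 group share sequence and do not count as independent sites.

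**Figure D5:**
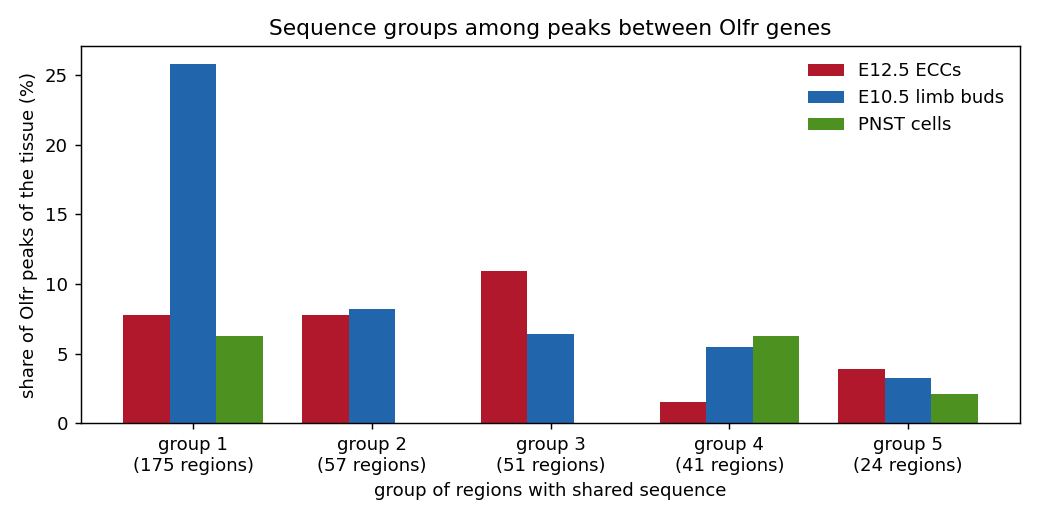
Share of the Olfr peaks of each tissue (bars, percent, vertical axis) in the 5 largest groups of regions with shared sequence (horizontal axis). Group 1 holds 25.8% of the limb bud peaks and under 8% of those of the other tissues, and groups 2 and 3 hold no PNST peak.

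The proteins that act with olfactory receptors were examined as a list of 25 genes for odorant signalling, receptor trafficking and receptor gene choice. In ECCs 7 had a peak within 50 kb (28.0%, background of all coding genes 22.5%), in limb buds 17 (68.0%, background 53.9%) and in PNST cells 5 (20%, background 14.6%). Ano2, the calcium-activated chloride channel of olfactory cilia, was the 1 gene of the 25 with a peak near it in all 3 tissues (background of all coding genes 6.56%). Its nearest peak had 6 tags at 3523 bp for ECCs, 10 tags at 4039 bp for limb buds and 12 tags at 26693 bp for PNST cells. These counts are of 25 genes and are small.

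Among the signalling genes, Gnal, which encodes the G protein alpha subunit coupled to the receptors, had peaks 87 bp away in ECCs (7 tags) and 101 bp away in limb buds (9 tags). Adcy3, the adenylyl cyclase of olfactory cilia, had a limb bud peak of 25 tags at 952 bp and a PNST peak of 8 tags at 9270 bp. Cnga2, a subunit of the cyclic nucleotide-gated channel, had peaks in limb buds (8 tags, 2587 bp) and PNST cells (11 tags, 7184 bp). Slc24a4, the cation exchanger that helps to end the response, had peaks in ECCs (6 tags, 9297 bp) and limb buds (9 tags, 3752 bp). Reep1, which aids receptor trafficking, had peaks in ECCs (6 tags, 23885 bp) and PNST cells (9 tags, 17503 bp).

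Among the regulators of receptor choice, Ldb1, the adaptor bound by Lhx2, had peaks in ECCs (6 tags, 15044 bp) and limb buds (10 tags, 14591 bp). Ebf2, a helix-loop-helix factor of olfactory neurons, had peaks in ECCs (6 tags, 42563 bp) and limb buds (8 tags, 10818 bp). Lbr, the lamin B receptor that tethers heterochromatin, had peaks in limb buds (9 tags, 882 bp) and PNST cells (8 tags, 28674 bp). No peak lay within 50 kb of 6 of the 25 genes in any tissue (background of all coding genes 41.3%). Among them were Omp, the marker of mature olfactory neurons, and Kdm1a, the demethylase needed to start receptor expression. Most of these nearest peaks had tags near the lowest value of their list.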

How the data were processed

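The authors sequenced Twist1 ChIP DNA from 3 samples, 1 per tissue, as single reads of 50 bp and mapped them to mm9 with Eland v2 and Bowtie (version not given in the sources used here). Each sample was called separately by MACS 1.4.2 with a band width of 300 bp, at most 1 tag per position and a p-value limit of 1e-05. The deposited tag counts are raw counts per peak, not normalized for depth. The authors deposited p-values as 10 times the −log10, and fold enrichment as the ratio of tags to the local background. Per the file headers the control file is None, whereas the methods name FVB/N genomic DNA. The headers gave 5702220, 23086861 and 16760421 tags before the duplicate filter, with 5, 8 and 7 tags as the fewest in a peak of ECCs, limb buds and PNST cells. The deposited limb bud list was used whole, and it holds more peaks, from more tags, than the study's text describes for that tissue, for a reason not given in the sources used here.

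Peaks were chosen by the names of both flanking genes. Members and lists were chosen with earlier results of these data known. Distances are as deposited. Where genes were matched in the annotation, the distances of 82 of 129, 397 of 619 and 60 of 95 Olfr peaks lay within 5 bp of the distance to the facing end of the gene, and those of 40, 199 and 28 within 5 bp of that to a start site. Overlap required 5% of a peak's length. Sequence, GC content, E-boxes (CANNTG), tandem runs (units up to 20 bp) and copies of 32-bp words came from the mm9 assembly, and genes from GENCODE vM1, whose Olfr clusters were runs of at least 2 coding Olfr genes. Peaks on unplaced sequences entered the lists' totals but not the sequence shares. Density intervals are exact Poisson intervals of the count in clusters, shares carry Wilson intervals, and no hypothesis test was run. 1 region found in all 3 tissues is not reported here. Otherwise named were, per tissue, the 3 members with most tags and the 3 with highest fold enrichment, every region of all 3 tissues, the cluster with most members, and pathway genes with a peak within 50 kb in at least 2 tissues. Peaks in exons, in single-copy sequence or in the fullest gap, the sequence groups and the E-box forms were added after their values were seen. Python 3.11.15, numpy 2.4.6, pandas 2.3.3, scipy 1.17.1, pysam 0.24.0 and numba 0.67.0 were used, and the scripts were tested on simulated data. Alternatives were stricter p-values and fold enrichment, merged peaks, other overlap rules, other gene rules and E-boxes near summits.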

Additional observations from a re-analysis of the deposited data

How the results depend on the processing

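Each tissue had 1 sample, so no replicate could be left out, and no paired analysis was possible because no groups of replicates were compared. Of 57 alternative values, 23 stayed within the interval or spread used, 33 moved and 1 reversed. Shares of the list (ECCs, limb buds, PNST cells) were 1.80%, 1.79% and 1.99% with at least 1 flanking Olfr gene, by construction higher. With both genes within 50 kb they were 0.948% in ECCs and 1.08% in limb buds. At a p-value of 1e-10 they were 0.975% in limb buds and 0.962% in PNST cells, and at a fold enrichment of 20 they were 1.13% and 1.03%. The 1 reversed value was the limb bud density ratio, at 1.30 in the main setting and 0.99 at 1e-10, from 41 peaks in the clusters. The share overlapped by another tissue was 20.2% in ECCs and 4.33% in limb buds under reciprocal overlap of 50% (24.8% and 6.35% of all peaks), and 47.3%, 13.1% and 22.9% when a peak within 1 kb counted (47.7%, 14.8% and 27.2% of all peaks). At 1e-10 it was 41.7%, 9.30% and 50% of 12, 43 and 6 peaks (60.9%, 17.9% and 77.6% of all such peaks). Chosen after seeing the data, peaks mostly of single-copy sequence gave 33.3% in ECCs (2 of 6, 41.8% of all such peaks). They gave 100% in limb buds (1 of 1, 37.7% of all such peaks) and in PNST cells (3 of 3, 66.2%). These limb bud and PNST peaks all lay in regions found in all 3 tissues. Single copy again means 1 exact copy in mm9, so the choice does not show that the tags of these peaks had a single origin. E-boxes within 50 bp of the summit were present in 41.1%, 40.1% and 39.6% (38.5%, 39.9% and 40.7% of all peaks), and at 1e-10 any E-box was present in 25%, 55.8% and 33.3% (34.4%, 56.2% and 30.1% of all such peaks). At 1e-10 median tags were 11, 17 and 15.5 (13, 19 and 25 for all such peaks) and median fold enrichment 63.62, 18.27 and 24.27 (47.00, 18.27 and 30.34). Tags per 100 bp had medians of 3.37, 6.62 and 5.51, compared with 3.49, 6.67 and 5.52 over all peaks. The cause of the other moves was not tested. At these depths, absence from a list does not show that a peak was absent.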

Other observations

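Other chemosensory receptor families also had peaks between their genes in these tissues. Peaks with a vomeronasal type 1 receptor gene (Vmn1r) on both sides numbered 33 (ECC), 171 (limb bud) and 19 (PNST), which was 0.301%, 0.349% and 0.252% of the lists. For the vomeronasal type 2 receptors (Vmn2r) the numbers were 59, 242 and 35, or 0.538%, 0.494% and 0.464%. The trace amine-associated receptors (Taar) had 3, 7 and 1 such peaks. The bitter taste receptors (Tas2r) had 0 ECC, 17 limb bud and 3 PNST peaks.

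Per coding gene the Vmn2r family had the most peaks between its members, at 0.47 (ECC), 1.94 (limb bud) and 0.28 (PNST), compared with 0.12, 0.56 and 0.09 in the Olfr family. These rates were not scaled to the length of sequence that each family covers, so they do not compare peak densities. The median tags per peak were 6, 10 and 8 for Vmn1r, 6, 9 and 8 for Vmn2r and 6, 10 and 8 for Olfr. Of the Vmn2r peaks, 15 ECC (25.4%), 16 limb bud (6.61%) and 2 PNST ones (5.71%) were overlapped by a peak of another tissue. Differences between families were not tested.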
